A study of Mus musculus with 2 samples.

Results

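Astrocytes made up 548 of the 22285 cells profiled by single-cell ATAC-seq, an assay in which a transposase inserts into open chromatin so that accessible regions can be read nucleus by nucleus. They are the cells that the authors' deposited annotation names astrocytes: 223 of 13337 cells in the Nfia/b/x-deficient library and 325 of 8948 cells in the control library. The deficient library came from mice that carried Rax-CreER, the nuclear GFP reporter CAG-lsl-Sun1-GFP and the floxed alleles Nfialox/lox, Nfiblox/lox and Nfixlox/lox, which CreER can delete. The control library came from Rax-CreER;CAG-lsl-Sun1-GFP mice, which carry the same driver and the same GFP reporter and no floxed Nfi allele. All cells came from the mediobasal hypothalamus at postnatal day 8 and were sorted for GFP. The reporter can be switched on in cells that express Rax, chiefly tanycytes, and stays on in their progeny. The sort was thus aimed at these cells and not at astrocytes of any other origin. Its purity could not be read from these data. The labels do not say whether animals were pooled or when CreER was activated.

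Tanycytes are radial glia-like cells of the third ventricle wall that can give rise to neurons and glia. Astrocytes are glia that support synapses, take up transmitters and line blood vessels, and are recognised by genes such as Gfap, Aqp4, Agt and Slc6a11. NFIA, NFIB and NFIX are DNA-binding proteins of the nuclear factor I family, which in the developing mouse brain act in the start of gliogenesis and in astrocyte maturation. Oligodendrocyte precursor cells (OPCs) are the other glial progenitors among the sorted cells, and ependymal cells are the ciliated cells that line the ventricle.

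Each genotype had 1 library, so no test between genotypes was possible and no p-value is given. The unit of measurement is the detection, meaning that a region was recorded as open in a given cell. The deficient library held 61678629 detections with a median of 4042 per cell, and the control library held 50973118 with a median of 4549.5. Intervals in brackets are exact 95% intervals that cover counting error only. They treat cells or detections as independent and hold no variation between animals. Of all cell barcodes 204 occurred in both libraries, among them those of 4 deficient and 7 control astrocytes, and none was an astrocyte in both. The regions carry numbers that the files do not pair with positions, so the astrocyte markers and the 3 deleted genes could not be read and both the cell type and the genotype rest on their labels.

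Astrocytes were a smaller part of the deficient library under every denominator computed, and the size of the gap depended on the denominator. They were 1.67% of deficient cells and 3.63% of control cells, a ratio of 0.460 (0.386 to 0.548). A share of all cells also depends on the other types. Neurons and proliferating tanycytes were more frequent in the deficient library, and so were ependymal cells (1.99% of deficient and 1.49% of control cells). Without neurons and proliferating tanycytes, astrocytes were 2.28% of deficient and 4.06% of control cells, a ratio of 0.561 (0.471 to 0.668). Outside the tanycyte classes they were 6.79% of deficient cells (5.96 to 7.71%) and 19.8% of control cells (17.9 to 21.8%), a ratio of 0.344.

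Set against the possible source cells and the other progeny, the gap ranged widely. There were 2.22 astrocytes per 100 tanycytes in the deficient library and 4.45 in the control library, a ratio of 0.498 (0.417 to 0.595). Per 100 tanycytes outside the proliferating class the values were 2.47 in the deficient and 4.49 in the control library (ratio 0.551, 0.461 to 0.657). Per 100 neurons there were 8.85 astrocytes in the deficient and 36.8 in the control library, the widest gap of those computed (0.240, 0.198 to 0.291). Per 100 OPCs there were 81.4 astrocytes in the deficient and 106.9 in the control library (0.761, 0.597 to 0.971), the narrowest gap. In the pool of astrocytes and OPCs, astrocytes were 44.9% of cells (40.4 to 49.4%) in the deficient library and 51.7% (47.7 to 55.6%) in the control library. These 2 intervals overlapped at their edges. The ratio of the 2 shares was 0.868 (0.729 to 1.03), an interval that included equal shares, while the interval of the ratio per 100 OPCs lay below equality. Whether the split between the 2 glial classes differed beyond counting error thus depended on the measure. All shares are of sorted cells, and fewer astrocytes formed, fewer labelled and fewer recovered cannot be told apart.

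**Figure D1:**
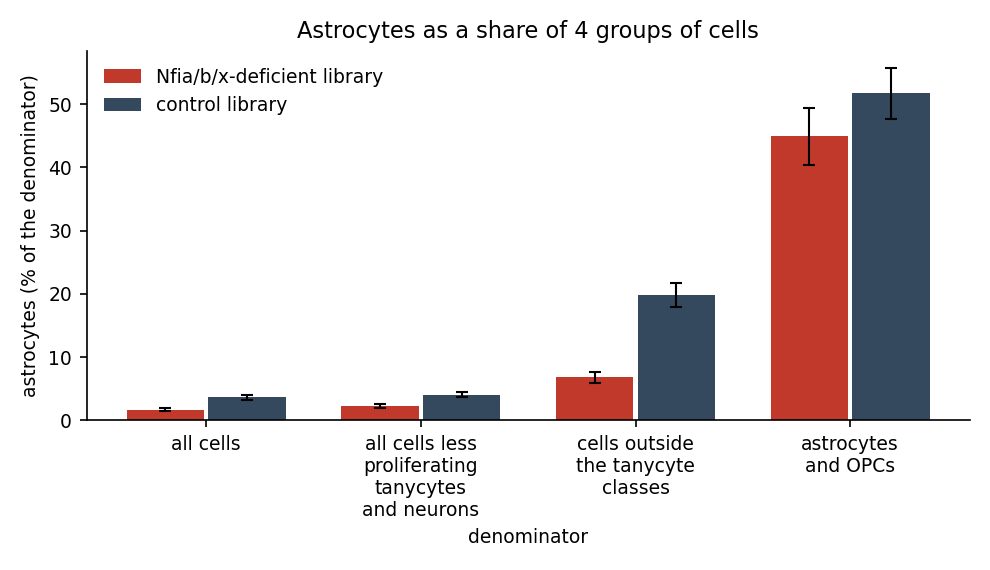
Astrocytes as a percentage of 4 groups of cells (x axis) in the Nfia/b/x-deficient library (red, left) and the control library (blue, right), with exact 95% intervals for counting error. The deficient bar is lower for every denominator, and only for astrocytes and OPCs together do the intervals of 40.4 to 49.4% and 47.7 to 55.6% overlap.

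The astrocytes of both libraries were read at similar depth. Deficient astrocytes had a median of 4615 detections per cell (quartiles 3192 and 6733, range 1135 to 13553), and control astrocytes had 4742 (quartiles 2855 and 7058, range 1038 to 17250). Both medians lay above those of OPCs, at 3432.5 in the deficient and 3379.5 in the control library. More deficient than control astrocytes were among the deepest 5% of cells of their own library, at 14 cells (6.28%) and 7 cells (2.15%).

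Together the 223 deficient astrocytes gave 1130556 detections and the 325 control astrocytes gave 1755428. Of the 107377 regions, 101357 (94.4%) were found in at least 1 deficient astrocyte and 104130 (97.0%) in at least 1 control astrocyte. Far fewer were open in a sizeable share of cells. There were 14401 regions found in at least 10% of deficient astrocytes and 15781 in at least 10% of control astrocytes. The 13176 regions on both lists were 91.5% of the deficient and 83.5% of the control list. Only 22 regions were found in at least 50% of deficient astrocytes and 41 in at least 50% of control astrocytes. The most widely found region was present in 174 deficient astrocytes (78.0%), and in control astrocytes the most widely found region was present in 228 cells (70.2%).

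To describe what marks astrocytes without gene names, the 500 regions with the highest log2 ratio of astrocytes over all other cells were chosen in alternate cells of a library and measured in cells not used for the choice. In the control library the chosen regions had a median log2 ratio of 1.28 and a lowest ratio of 0.94. In the deficient library, which had no part in that choice, 96.6% of them were again above the other cells, with a median log2 ratio of 1.17. This was not particular to astrocytes. For the other types with 500 control-chosen regions the share ran from 94.6% in alpha2 tanycytes to 100% in beta2 tanycytes and neurons. It was not set against the share over all regions. Choosing in the deficient library gave a list that shared 96 regions with the first, or 19.2% of each list. Each list held 500 of the 107377 regions. Only regions with at least 20 detections in the choosing astrocytes and a log2 ratio of at least 0.5 could enter a list. The shared part was not set against that smaller pool. For the other types with 500 regions chosen in both libraries, the shared part ran from 10.8% in alpha2 tanycytes to 43.6% in beta2 tanycytes. It was 41.2% in OPCs.

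These astrocyte regions were slightly less open in deficient astrocytes under both choices. They took 12.8 of every 1000 detections (12.6 to 13.0) in deficient astrocytes and 14.3 (14.0 to 14.5) in control astrocytes, a log2 ratio of -0.16 (-0.19 to -0.12). Chosen in the deficient library instead, they took 18.5 per 1000 in deficient and 19.7 in control astrocytes, a log2 ratio of -0.09 (-0.12 to -0.06). A list chosen in 1 library tends to look weaker in the other, and here the sign of the pooled level was negative whichever library made the choice. Single regions followed the choice instead, counted over all astrocytes, the choosing cells included. Of the 476 control-chosen regions with at least 50 detections 362 (76.1%) were below 0. Of the 500 deficient-chosen regions 198 (39.6%) were below 0 and 302 above. Among all 16823 regions with that many detections 54.5% were below 0.

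By level, OPCs came closest to astrocytes in these regions. The regions were chosen against all other cells together, a pool with many tanycytes and few OPCs. Alpha2 tanycytes alone were 48.1% of control cells and OPCs 3.40%. The part of this choice in the order of the types was not tested. The control-chosen regions took 11.7 per 1000 detections in deficient OPCs and 13.1 in control OPCs, which was 91.4% and 91.5% of the astrocyte level of the same library. Levels in ependymal cells were 6.57 in the deficient and 6.68 in the control library, and in alpha2 tanycytes 5.82 and 6.48. With the deficient-chosen regions the other types lay nearer to astrocytes: alpha1 tanycytes had 12.4 in the deficient and 14.7 in the control library, alpha2 tanycytes 11.8 and 14.4, and beta2 tanycytes 9.38 and 11.2. Under the control choice beta2 tanycytes, the subtype of the median eminence, had the lowest levels, at 3.49 in the deficient and 3.79 in the control library. The lower level in the deficient library was not particular to astrocytes. Control-chosen regions had a log2 ratio of -0.16 in OPCs, and among tanycytes alpha1 had -0.22, alpha2 -0.16, beta2 -0.12 and beta1 -0.06, all with intervals below 0. The intervals included 0 in ependymal cells (-0.02, -0.08 to 0.03) and in proliferating tanycytes (-0.02, -0.11 to 0.07). Deficient-chosen regions were lower in all 8 other types, from -0.17 in neurons to -0.32 in proliferating tanycytes, where astrocytes had -0.09. Under the control choice neurons were the only type whose whole interval of the log2 ratio lay above 0, at 6.02 per 1000 in the deficient and 5.78 in the control library (0.06, 0.03 to 0.09). The sign in neurons thus depended on the choice.

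**Figure D2:**
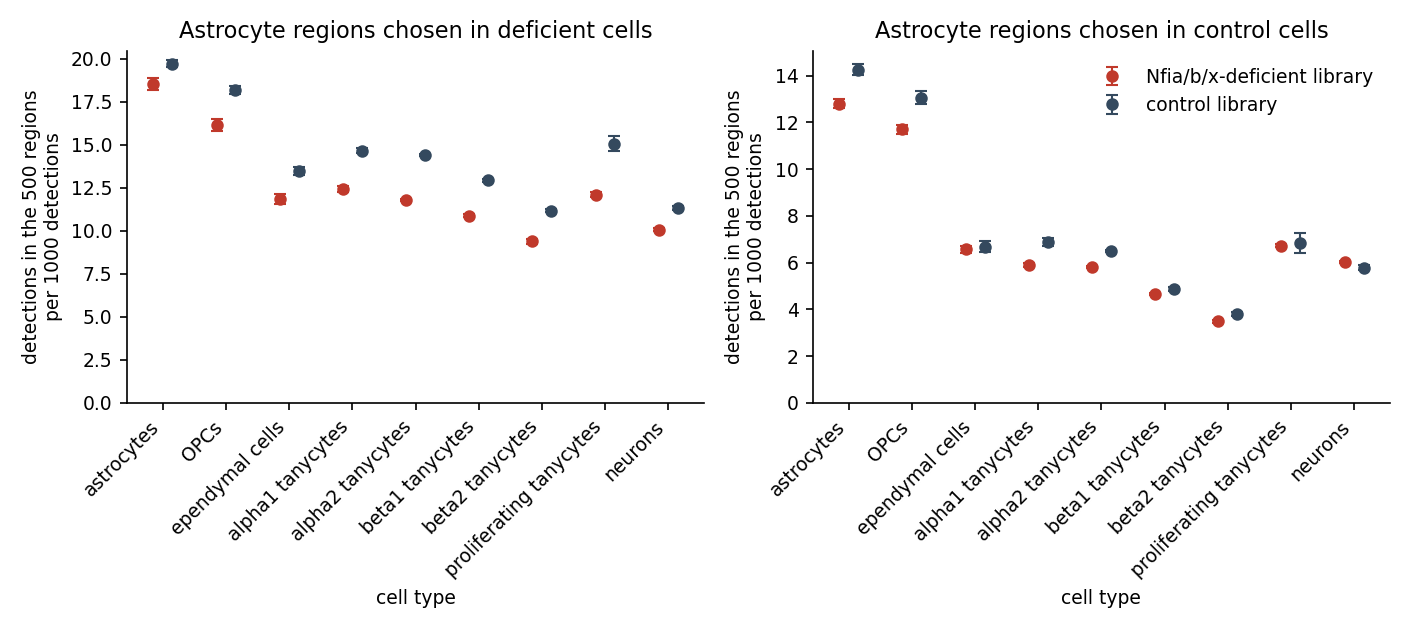
Detections in 500 astrocyte regions per 1000 detections (y axis) in 9 cell types (x axis), for regions chosen in deficient cells (left) and in control cells (right). Points are the Nfia/b/x-deficient library (red, left of each pair) and the control library (blue), with exact 95% intervals for counting error. For the control-chosen regions OPCs, at 11.7 in the deficient and 13.1 in the control library, lie close below astrocytes and the other 7 types lie under 7.

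Of the 500 control-chosen regions, 372 (74.4%) reached at least 50% of the astrocyte level in OPCs of the control cells used for the choice. The same level was reached by 153 regions in alpha1 tanycytes, 141 in ependymal cells, 103 in alpha2 tanycytes, 100 in neurons and 30 each in beta1 and beta2 tanycytes. Only 64 regions (12.8%) stayed under that level in all 7 of these types. Over these 64 regions astrocytes took 1.41 per 1000 detections in the deficient library and 1.55 in the control library, a log2 ratio of -0.13 (-0.24 to -0.03). In OPCs the same 64 regions took 0.640 in the deficient and 0.823 in the control library. The groups of regions shared with each other type had log2 ratios in astrocytes between -0.12 and -0.21, and all of their intervals lay below 0 except that of the regions shared with beta2 tanycytes (-0.13, -0.28 to 0.015). The small deficit of astrocyte regions was therefore of similar size whether a region was shared or not.

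A stricter list held the 243 regions that in the control choosing cells had at least 20 detections in astrocytes and a log2 ratio of at least 0.5 over each other type with a profile. In the deficient library astrocytes were the highest type at 158 of these 243 regions (65.0%). The stricter regions took 5.74 per 1000 detections in deficient and 6.24 in control astrocytes (log2 ratio -0.12, -0.17 to -0.07). OPCs reached 68.2% of the astrocyte level in the deficient library and 69.6% in the control library, and no other type passed 57.0% in the deficient or 55.7% in the control library. A list of 124 regions made the same way in the deficient library shared 11 regions with it, and at 66 of those 124 (53.2%) control astrocytes were the highest type. Proliferating tanycytes had a profile in the deficient library only, so the shares of 65.0% and 53.2% were taken over different types. Neither was set against the share over all regions.

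Astrocyte regions, chosen against a pool with many tanycytes and few OPCs, separated single astrocytes from tanycytes far better than from OPCs. To compare cells of unequal depth, each cell was thinned to 2000 random detections, which left out 21 of 223 deficient and 16 of 162 control astrocytes. Deficient astrocytes then had a median of 26 detections in the control-chosen regions (quartiles 20.25 and 31, range 11 to 47) and control astrocytes had 30 (quartiles 25 and 35, range 11 to 58). The distributions overlapped over most of their range. OPCs had medians of 22 in the deficient and 28 in the control library, and alpha2 tanycytes had 11 and 12. The cutoff was the lower quartile of the astrocytes of the same library, 20.25 detections in the deficient and 25 in the control library. Shares that reached it are therefore not comparable between libraries. It was reached by 65.1% of OPCs in the deficient library (58.5 to 71.2%) and 66.1% in the control library (57.0 to 74.5%). It was reached by 4.15% of alpha2 tanycytes in the deficient library (190 of 4574 cells) and 2.29% in the control library (46 of 2011 cells). Without thinning these alpha2 shares were 1.53% in the deficient and 1.02% in the control library. In beta2 tanycytes it was reached by 1 of 915 deficient cells and 0 of 430 control cells, where 0 allows a share of up to 0.854%.

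**Figure D3:**
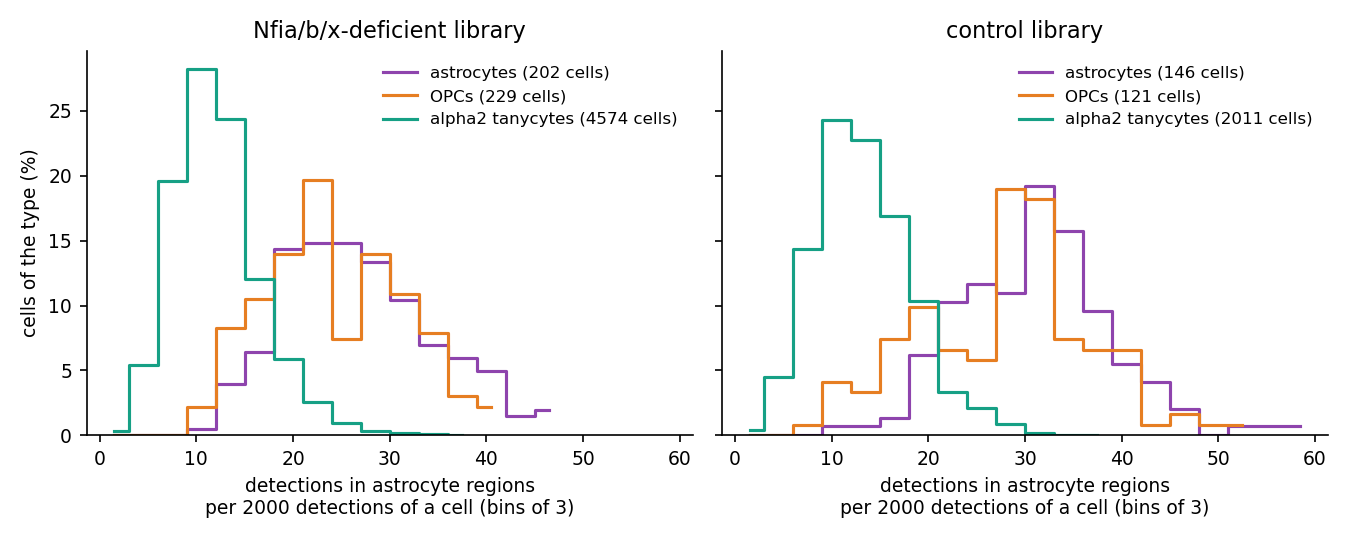
Percentage of cells (y axis) by the number of detections in 500 control-chosen astrocyte regions among 2000 detections of a cell (x axis, bins of 3), in the Nfia/b/x-deficient library (left) and the control library (right). Astrocytes (purple; medians 26 and 30) overlap with OPCs (orange; 22 and 28) and lie above most alpha2 tanycytes (green; 11 and 12).

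Each cell was also matched to the nearest of the type profiles of its own library, built from the other alternate cells and all thinned to 400000 detections. The astrocyte profile was nearest for 186 of 223 deficient astrocytes (83.4%, 77.9 to 88.0%) and 290 of 325 control astrocytes (89.2%, 85.3 to 92.4%), so the intervals overlapped. The remaining cells were spread thinly: 12 deficient and 14 control astrocytes were nearest to OPCs, and 9 and 8 to alpha2 tanycytes. In the deficient library a further 10 were nearest to proliferating tanycytes, a class with 63 cells and no profile of its own in the control library. When the astrocyte profile was set aside, the closest type was OPCs for 51.1% of deficient and 67.4% of control astrocytes. Alpha2 tanycytes were closest for 17.9% of deficient and 16.9% of control astrocytes. Ependymal cells were closest for 11.2% of deficient and 6.77% of control astrocytes. A further 13.0% of deficient astrocytes were closest to proliferating tanycytes, a choice that control astrocytes did not have, so these shares are not comparable one to one.

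Whole profiles also placed OPCs nearest to astrocytes. At an equal depth of 900000 detections, over the 30019 regions found in at least 1000 cells, deficient and control astrocytes had a Pearson r of 0.842 across regions. The r with OPCs of the same library was 0.793 for deficient and 0.821 for control astrocytes. Ependymal cells followed, with 0.755 in the deficient and 0.776 in the control library, then alpha2 tanycytes with 0.747 and 0.770. Beta2 tanycytes were least alike, with 0.627 and 0.662. Over the regions found in at least 5000 cells OPCs were again the most alike, with 0.648 in the deficient and 0.683 in the control library, but alpha2 tanycytes had 0.566 and 0.546, so which library gave the higher r depended on the regions used. A plain form of r, also computed over the 30019 regions, was 0.902 between deficient and control astrocytes. OPCs stayed nearest in that form, with 0.861 in the deficient and 0.881 in the control library. Ependymal cells had 0.841 and 0.851, and alpha2 tanycytes 0.846 and 0.850. The order of these 2 types in the deficient library thus depended on the form of r. All r values describe regions, which are not independent, and types of 1 library share its preparation.

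Single regions with the largest ratios over other types were found in a minority of astrocytes. Over both libraries the highest ratio over all other cells was that of region 86744, found in 19 of 223 deficient and 31 of 325 control astrocytes, or 17.3 detections per 1000000 in astrocytes and 0.966 in all other cells (log2 ratio 3.22). Region 72571 followed, found in 33 deficient and 47 control astrocytes (27.7 per 1000000 in astrocytes and 2.19 in other cells, log2 ratio 3.17). Region 86744 was at 0.90 per 1000000 in deficient OPCs and 1.56 in control OPCs. Region 72571 was at 22.5 and 17.2 per 1000000 there, so the first set astrocytes apart from OPCs and the second did not. At the other end, regions 28523 and 84856 were found in 0 of 548 astrocytes and in 614 and 599 other cells. Against 3 detections in all astrocytes together, these 2 regions were at least 5.38-fold and 5.25-fold lower in astrocytes than in other cells.

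Against OPCs alone the largest ratios lay on the OPC side. Region 28078 was found in 1 deficient and 6 control astrocytes, at 2.43 per 1000000 over both libraries, and at 41.0 per 1000000 in OPCs (log2 ratio -3.62). Region 26253 was found in 4 deficient and 6 control astrocytes, with 3.47 per 1000000 in astrocytes and 38.1 in OPCs (-3.13). On the astrocyte side region 68783 had 30.1 per 1000000 in astrocytes and 6.28 in OPCs (2.10), and region 36724 had 32.6 and 8.37 (1.84). Region 68783 was also open in ependymal cells, at 36.3 per 1000000 in the deficient and 37.3 in the control library. Region 36724 was at 30.1 per 1000000 in deficient and 34.2 in control astrocytes and at most 10.2 per 1000000 in any other type of either library. At equal depth, astrocytes and OPCs were 2-fold or more apart at 2.92% of 9397 regions in the deficient library and at 1.88% of 9695 in the control library. Between deficient and control astrocytes the share at that depth was 0.721%.

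Against alpha2 tanycytes, the most numerous class, the regions with the highest ratios were region 72571 (log2 ratio 3.36) and region 75955 (3.25). Region 75955 was found in 27 deficient and 42 control astrocytes, at 23.9 per 1000000 in astrocytes and 1.62 in alpha2 tanycytes. It was at 18.0 per 1000000 in deficient and 14.1 in control OPCs. The lowest were region 84856 and region 48998, both found in 0 of 548 astrocytes. They were at 6.12 and 5.42 per 1000000 in alpha2 tanycytes, and thus at least 5.88-fold and 5.21-fold lower in astrocytes.

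Between the 2 kinds of astrocytes few single regions differed widely. Of 16823 regions with at least 50 detections, 0.636% were 2-fold or more apart. In all, 20 regions (0.119%) were higher and 87 (0.517%) lower in deficient astrocytes. With both pools thinned to equal depth, 24 regions were higher and 45 lower, a less uneven split. With each cell thinned to 2000 detections 4 were higher and 18 lower, and with median-of-ratios scaling 15 and 119, so these settings did not lessen it. With no minimum of detections, which lets in regions of very few detections, 8907 were higher and 9425 lower, a nearly even split. The median log2 ratio was -0.03, and from the 5th to the 95th percentile the ratios ran between -0.58 and 0.46. Of the 397 regions with at least 200 detections, none reached 2-fold. The regions named here and above were picked for their ratios, so those ratios are description.

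Among regions with at least 100 detections, which leaves out the most extreme ratios of 1.62 and -1.89, the highest ratio was that of region 107372, found in 138 of 223 deficient and 116 of 325 control astrocytes, or 122.1 (103 to 144) and 66.1 (54.6 to 79.3) per 1000000, a log2 ratio of 0.88. It was higher in the deficient library in all 9 types. Region 72680 was found in 55 deficient and 46 control astrocytes (0.87), at 48.6 per 1000000 in deficient and 26.2 in control astrocytes. The lowest ratio among regions of that depth was that of region 18580, found in 20 deficient and 80 control astrocytes, or 17.7 (10.8 to 27.3) and 45.6 (36.1 to 56.7) per 1000000, a log2 ratio of -1.32. In alpha2 tanycytes it was at 34.8 per 1000000 in the deficient and 42.3 in the control library, a smaller gap. Region 13161 was found in 23 deficient and 79 control astrocytes (-1.11). It was lower in the deficient library in all 9 types.

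The regions that differed most between the genotypes in alpha2 tanycytes differed in the same direction in astrocytes, and by less. They were the 500 lowest and the 500 highest regions by the log2 ratio of deficient over control in alternate alpha2 cells, among regions with at least 200 detections there. In astrocytes the 500 lowest took 5.91 per 1000 detections (5.77 to 6.05) in the deficient library and 8.33 (8.19 to 8.46) in the control library, a log2 ratio of -0.50 (-0.54 to -0.45). In alpha2 tanycytes not used for the choice they took 3.10 in the deficient and 9.75 in the control library, a log2 ratio of -1.65 (-1.67 to -1.64). The interval of the astrocyte ratio lay apart from those of all 8 other types. The next nearest to 0 were ependymal cells at -0.76 (-0.81 to -0.71) and OPCs at -1.05 (-1.10 to -0.99).

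Astrocytes therefore stood at different places in the 2 libraries. In the deficient library their level of 5.91 was the highest of the 9 types, above ependymal cells at 4.64 and alpha1 tanycytes at 4.49. In the control library 4 tanycyte classes were higher, led by alpha1 tanycytes at 10.96, and astrocytes were followed by ependymal cells at 7.87 and OPCs at 7.66. The smaller gap in astrocytes was not limited to regions that are little used there. At the 153 regions that control astrocytes used at or above the alpha2 level, the log2 ratio was -0.43 (-0.51 to -0.36) in astrocytes and -1.64 in alpha2 tanycytes. At the 89 regions under 50% of the alpha2 level it was -0.54 (-0.70 to -0.39) in astrocytes and -1.68 in alpha2 tanycytes.

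The 500 highest regions took 4.65 per 1000 detections in deficient and 3.03 in control astrocytes, a log2 ratio of 0.62 (0.57 to 0.68). In alpha2 tanycytes they took 7.17 in the deficient and 3.48 in the control library (1.04, 1.03 to 1.06). The astrocyte ratio was close to that of OPCs (0.63, 0.57 to 0.68) and ependymal cells (0.54, 0.47 to 0.60), and those of the tanycyte classes and neurons were 0.84 or more. Within astrocytes the ratio was smaller at the 182 regions that control astrocytes used at or above the alpha2 level (0.42, 0.32 to 0.52). It was larger at the 145 regions under 50% of that level (0.91, 0.76 to 1.07).

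**Figure D4:**
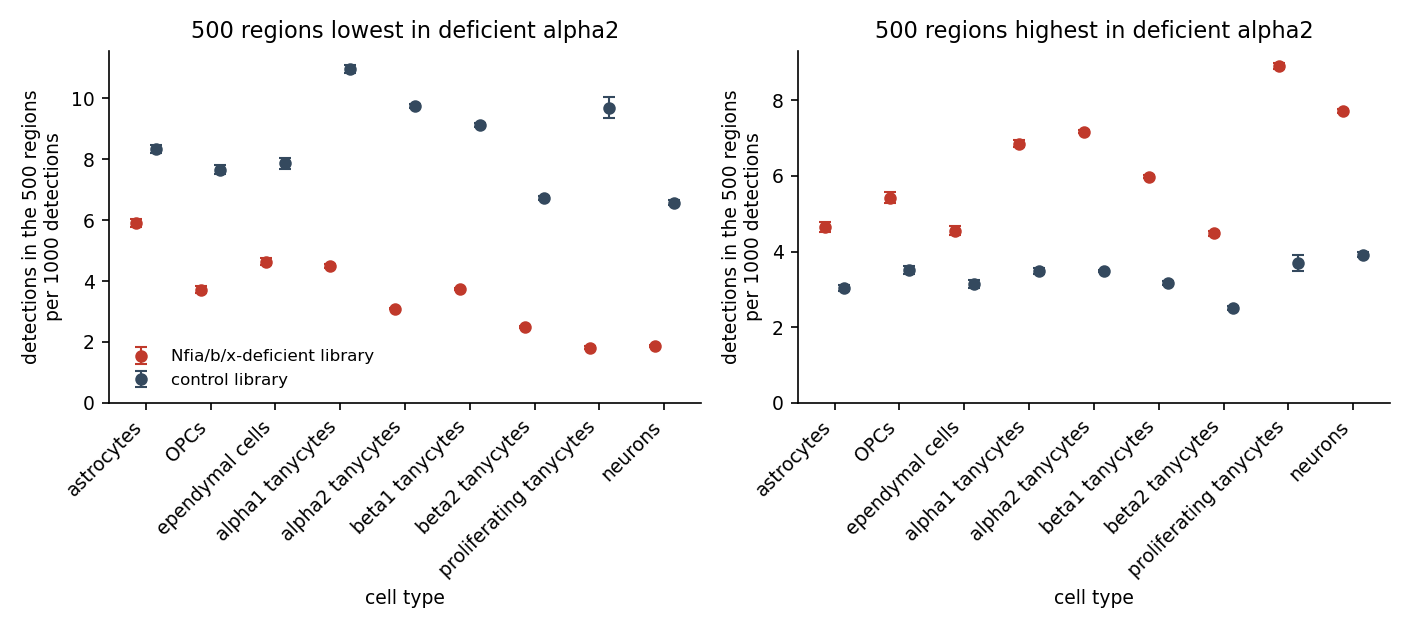
Detections per 1000 detections (y axis) in the 500 regions lowest (left) and the 500 highest (right) in deficient over control alpha2 tanycytes, in 9 cell types (x axis). Points are the Nfia/b/x-deficient library (red, left of each pair) and the control library (blue), with exact 95% intervals for counting error. In the left panel astrocytes have the smallest gap, at 5.91 in the deficient and 8.33 in the control library, and the highest deficient value.

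Few members of these lists had enough detections in astrocytes to be read singly. Of the 500 lowest regions, 154 had at least 50 detections; 11 of them were lower by 2-fold or more, where 0.517% of all regions tested were, and none was higher. Their median log2 ratio was -0.44, and 132 of the 154 were below 0, against 54.5% of all regions tested. Of the 500 highest regions only 18 had that many detections, and 3 of them were higher by 2-fold or more, where 0.119% of all regions tested were. Of the 500 lowest regions, 8 (1.6%) were among the deficient-chosen and 13 (2.6%) among the control-chosen astrocyte regions. Of all 35914 regions with enough detections in alpha2 tanycytes, 1.38% and 1.16% were on those lists.

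Astrocytes differed among themselves in these regions. When the profiles were rebuilt without the 2846 regions of the measured lists, 184 deficient and 284 control astrocytes were nearest to the astrocyte profile. In those cells the 500 lowest regions took 6.29 per 1000 detections (6.12 to 6.45) in the deficient library and 8.33 (8.19 to 8.48) in the control library. The 13 deficient astrocytes nearest to OPCs had 4.60 (4.10 to 5.15) and the 22 nearest to any tanycyte class had 3.88 (3.54 to 4.24). Of these 22 cells, 9 were nearest to proliferating tanycytes, the class with the lowest level in that library, at 1.81; the other 13 cells had 4.27 (3.84 to 4.73). The 16 control astrocytes nearest to OPCs had 6.63 and the 20 nearest to a tanycyte class had 8.79. The 500 highest regions showed the reverse order in the deficient library, at 4.40 in astrocytes nearest to their own profile and 6.28 (5.85 to 6.73) in those nearest to a tanycyte class, or 5.98 (5.47 to 6.52) without the cells nearest to proliferating tanycytes. In control astrocytes the same values were 3.02 and 3.11. The cells nearest to a tanycyte class were deeper, with medians of 6684 detections in the deficient and 7529.5 in the control library, and the part of 2 nuclei in 1 droplet was not tested.

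Depth moved with the levels of the alpha2 lists in deficient astrocytes and little in control astrocytes. In 3 classes of equal size from shallow to deep, the 500 lowest regions took 6.73, 5.91 and 5.66 per 1000 detections in deficient astrocytes and 8.18, 8.17 and 8.44 in control astrocytes. The 500 highest took 3.56, 4.47 and 5.09 in deficient astrocytes and 3.03, 2.86 and 3.12 in control astrocytes. In the shallowest class, with medians of 2505 detections in the deficient and 2309 in the control library, the log2 ratios were -0.28 (-0.39 to -0.18) and 0.23 (0.08 to 0.38). Astrocyte regions chosen in control cells fell with depth in both libraries. They took 15.2, 13.7 and 11.5 per 1000 detections in deficient astrocytes and 18.3, 15.5 and 12.6 in control astrocytes. The pooled levels of OPCs, which were shallower, were not matched to astrocytes in depth. The part of depth in the pooled ratios was not tested.

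Regions of other cell types followed in astrocytes, chosen as for astrocytes. Neuron regions were rare in astrocytes and more frequent in deficient ones, at 0.966 per 1000 detections in the deficient and 0.671 in the control library (log2 ratio 0.53, 0.38 to 0.67). Chosen in the deficient library the ratio was 0.52 (0.39 to 0.65). This was not particular to astrocytes: in the other non-neuronal types the control-chosen ratio ran between 0.16 in proliferating tanycytes, with an interval that included 0, and 0.61 in beta1 tanycytes. In neurons themselves these regions took 4.54 in the deficient and 8.78 in the control library (-0.95). Under the deficient choice neurons had 6.41 and 6.86 (-0.10). After thinning to 2000 detections, 46.0% of deficient and 31.5% of control astrocytes had 2 or more neuron-region detections, and 9.41% and 2.05% had 5 or more. None of these regions had 50 detections in astrocytes, so no single region could be followed.

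The neuron-region difference was not seen in the shallowest astrocytes. There the level was 0.692 in deficient and 0.778 in control astrocytes, a log2 ratio of -0.17 (-0.57 to 0.23). In the middle class it was 0.871 and 0.538, and in the deepest class 1.10 and 0.713. Without the deepest 5% of cells of each library the ratio was 0.35 (0.20 to 0.51). The deficient library also held more neurons, 18.9% of its cells against 9.86% in the control library. The part of droplets with 2 nuclei was not tested.

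Among the glial and tanycyte lists most differences in astrocytes were small. OPC regions took 9.71 per 1000 in deficient and 10.9 in control astrocytes (-0.17, -0.21 to -0.13; -0.15 when chosen in the deficient library). Alpha1 regions were also lower under both choices (-0.17 and -0.08). Alpha2 regions were higher under both choices, at 2.56 in deficient and 2.36 in control astrocytes (0.11, 0.03 to 0.20), or 0.23 when chosen in the deficient library. Regions of proliferating tanycytes, which could be chosen in the deficient library only, took 3.68 in deficient and 3.11 in control astrocytes (0.24, 0.17 to 0.32). They were higher in the deficient library in all 9 types, and the other 8 had ratios of 0.30 or more. For ependymal regions the control-chosen ratio was -0.00 (-0.05 to 0.04) and the deficient-chosen ratio -0.13 (-0.18 to -0.09), so the result depended on the choice. Beta1 regions behaved alike in this respect, at -0.03 (-0.14 to 0.08) and -0.38 (-0.50 to -0.27), and beta2 regions were lower under both choices (-0.14 and -0.38).

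**Figure D5:**
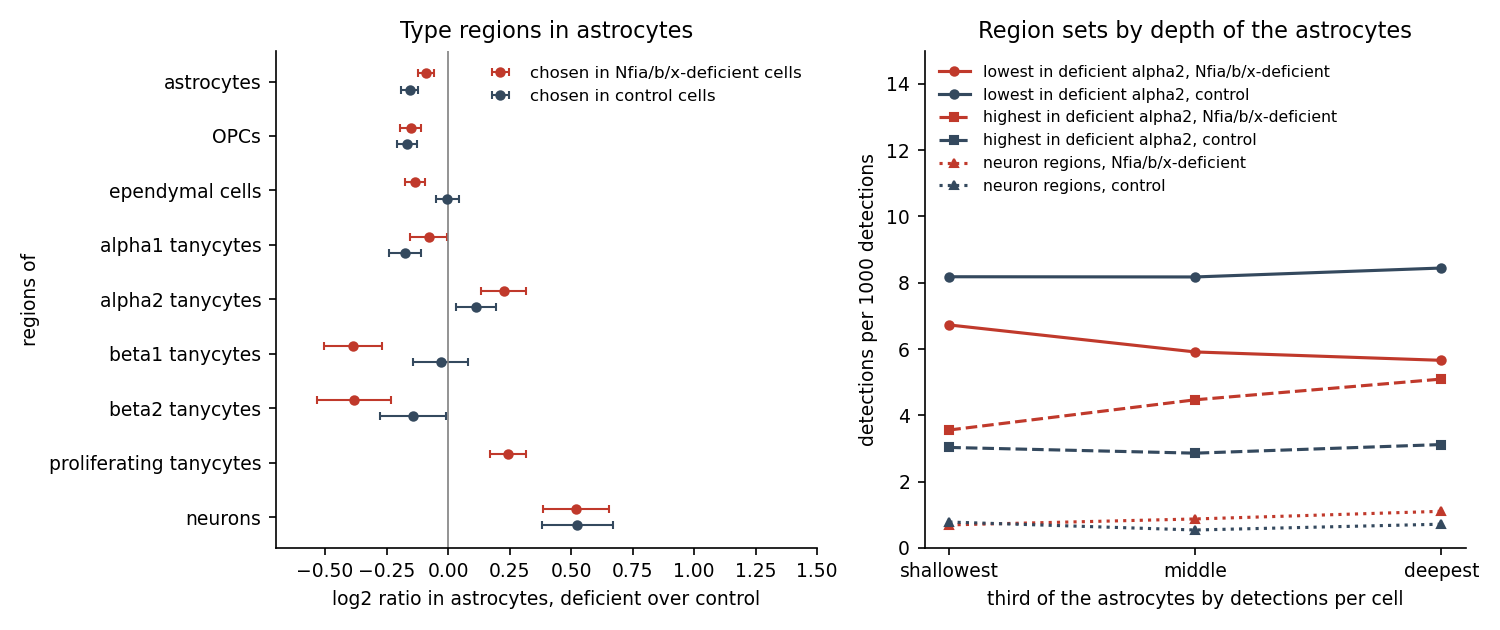
Left, log2 ratio in astrocytes of deficient over control for regions of 9 cell types, chosen in Nfia/b/x-deficient cells (red, upper) or control cells (blue, lower), with exact 95% intervals for counting error. Right, detections per 1000 detections in 3 region lists by depth class of the astrocytes, in the Nfia/b/x-deficient (red) and control (blue) libraries. Neuron regions have the highest ratios (0.52 and 0.53), and the deficient lines of the alpha2 lists move away from the control lines with depth.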

How the data were processed

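Per the labels' protocols, reads went through Cell Ranger ATAC with default parameters. The submitters' processing notes name mm10, Cell Ranger 3.1, Signac 0.2.5, Seurat and MACS2 without their roles. For region calling, cell filtering, doublet treatment and type naming, steps are not given in the sources used here. As deposited by the authors, the matrix holds presence or absence of 107377 regions in 22285 cells, which is neither a count of fragments nor a score, and saturates at 1 per cell. It was read in the order of the deposited annotation.

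Detections were summed per type and library and divided by all detections. Shares have Clopper-Pearson, levels Poisson and ratios conditional binomial intervals (odds-ratio intervals for astrocytes per 100 cells of a type). Single-region log2 ratios used a pseudocount of 1 per 1000000. Type lists needed 20 detections and a log2 ratio of 0.5. By rule, each comparison names its 2 top and 2 bottom regions among those holding 100 detections or more. Members and lists were chosen with earlier results of these data known. Counts per gene, assumed in the plan, could not be used. Functions were tested on simulated data. Software was pandas 2.3.3, matplotlib 3.10.9, scipy 1.17.1 and numpy 2.4.6 under Python 3.11.15.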

Additional observations from a re-analysis of the deposited data

Results flagged for a closer look

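In 2 cases a list of regions differed between the libraries in opposite directions in astrocytes and neurons, and the difference between the types was not tested. Neuron regions chosen in control cells had a log2 ratio of deficient over control of 0.53 in astrocytes and of -0.95 in neurons, and the ratio was above 0 in the other 7 types too, with an interval that included 0 in proliferating tanycytes. Chosen in deficient cells they had 0.52 in astrocytes and -0.10 in neurons. Astrocyte regions chosen in control cells had a log2 ratio of -0.16 in astrocytes and of 0.06 (0.0576) in neurons. Chosen in deficient cells they had -0.09 in astrocytes and -0.17 in neurons, so the opposite sign was not seen under that choice.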

How the results depend on the processing

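No paired analysis was possible because each genotype had 1 library. Of 55 alternatives for 10 results, 30 gave a value within the counting interval of the reported one, 24 lay outside it and 1 reversed. For the share of single regions past 2-fold the limit was 1.5 times instead. The r with OPCs has no counting interval, so its alternative is among the 24 by rule. All values are log2 ratios of deficient over control unless a percentage or r is named, and depth classes, nearest profiles and shared barcodes were added after seeing the data. The astrocyte share (-1.12) was -0.83 without neurons and proliferating tanycytes. Single regions past 2-fold (0.636%) were 0% at 200 detections or more, 17.1% with no minimum and 0.214% with a pseudocount of 5 per 1000000. Higher regions were 18.7% of them, 11.2% with median-of-ratios scaling, which shifted astrocytes by 0.050, and 48.6% with no minimum. Astrocyte regions (-0.16) had -0.21 after thinning, -0.21 with median-of-ratios scaling, -0.27 in the shallowest class, -0.090 chosen in the deficient library and -0.12 as the stricter list. Neuron regions (0.53) had 0.35 without the deepest 5% of cells, 0.69 in the middle class and -0.17 in the shallowest. The 500 lowest regions (-0.50) had -0.41 after thinning, -0.54 with median-of-ratios scaling, -0.41 in astrocytes nearest to their own profile, -0.28 in the shallowest class, -0.58 in the deepest and -0.55 as a list of 200. The 500 highest (0.62) had 0.55 after thinning, 0.54 in astrocytes nearest to their own profile, 0.23 in the shallowest class, 0.71 in the deepest and 0.76 as a list of 200. The level in deficient OPCs (91.4% of that in astrocytes) was 87.2% chosen in the deficient library, and the r with OPCs (0.793) was 0.648 over regions found in at least 5000 cells. Where depth class or cell choice moved a value, the cause was not tested. With 548 cells, single regions of under about 50 detections could not be followed.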
